A study of Sus scrofa with 10 samples.

Results

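SPP1 encodes osteopontin, a secreted phosphoprotein, and was read by 4 of the 45220 features of a porcine expression array in the oviducts of 10 sows. The members are all features that the platform annotation pairs with the symbol SPP1, namely features 3853, 21254, 21525 and 24334. All 4 carry the same transcript accession, and the gene was taken as their mean. SPP1 was chosen by results of these arrays, namely its brightness near the top of the scale, its difference by insemination and the genes whose profile follows it. Those values are therefore a description and carry no test.

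The arrays compared 5 artificially inseminated with 5 non-inseminated sows, 1 array per sow, to find transcripts of the oviduct that differ after insemination. All were cyclic Landrace x Large White hybrids in spontaneous oestrus after weaning, without hormonal treatment, and their oviducts were taken after ovulation. Inseminated sows received fresh, diluted semen of fertile boars, deposited in the cervix, and non-inseminated sows received none. The sample was the whole wall of the ampullary-isthmic junction, the site of fertilization in the pig, taken without flushing, so it mixes epithelium, stroma, muscle and whatever the lumen held. The label of every sow starts with AI, whether or not she was inseminated.

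Osteopontin is an acidic glycoprotein of the SIBLING family, named for small integrin-binding ligands with N-linked glycans. Its RGD motif is bound by integrins, its C-terminal part by CD44, and proteases such as thrombin and the matrix metalloproteinases cut it into fragments with altered binding. Epithelia and macrophages secrete it. In the pig it is known from the uterine epithelium, where it takes part in attachment of the conceptus, and from fertilization in vitro, where osteopontin added to the medium lowers polyspermy.

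Levels are given as log2 intensities, background-corrected and quantile-normalised by the authors. Every array ran up to 15.996 at most, the lowest of all values was 3.57, and 182 features lay within 0.1 of the top on each array. Arrays correlated with each other at 0.927 to 0.986 over all features. The oviductal glycoprotein OVGP1, which defines the secretory epithelium of this organ, lay between 15.91 and 15.98 in all 10 sows. In a bulk sample such as this, fewer cells of a type and less RNA per cell cannot be told apart.

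SPP1 was bright in every sow. Its mean over the 4 features and 10 sows was 14.43, above that of 98.7% of the 4560 genes with a symbol, although brightness also depends on the probe and does not rank transcripts by abundance. In inseminated sows the gene stood at 14.79 in AI943, 15.28 in AI993, 14.71 in AI837, 15.18 in AI1059 and 13.70 in AI792. In non-inseminated sows it stood at 12.53 in AI788, 13.36 in AI1061, 13.05 in AI991, 15.72 in AI696 and 15.95 in AI992. The inseminated sows thus lay inside the span of the non-inseminated sows, and all 5 non-inseminated sows fell outside the inseminated range, 3 below it and 2 above it. On feature 24334 alone 4 of the 5 fell outside it.

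The group means were close beside this spread. SPP1 averaged 14.73 ± 0.63 in inseminated and 14.12 ± 1.59 in non-inseminated sows (SD, n = 5 each), a difference of 0.61 with a standard error of 0.66 from the limma fit over all genes. The SD of non-inseminated sows was 2.53 times that of inseminated sows. A wider spread there was not particular to SPP1. Among epithelial markers this ratio was 4.05 for EPCAM and 4.15 for KRT8, but 0.20 for PIGR. Its distribution over all genes was not analysed here. The size of the SPP1 difference depended on single non-inseminated animals, being 0.21 without AI788, 0.34 without AI991, 1.01 without AI696 and 1.07 without AI992. It also depended on the average used, since the difference of medians was 1.43 and the log2 ratio of linear means was 0.03. Each of these had the inseminated sows higher.

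**Figure D1:**
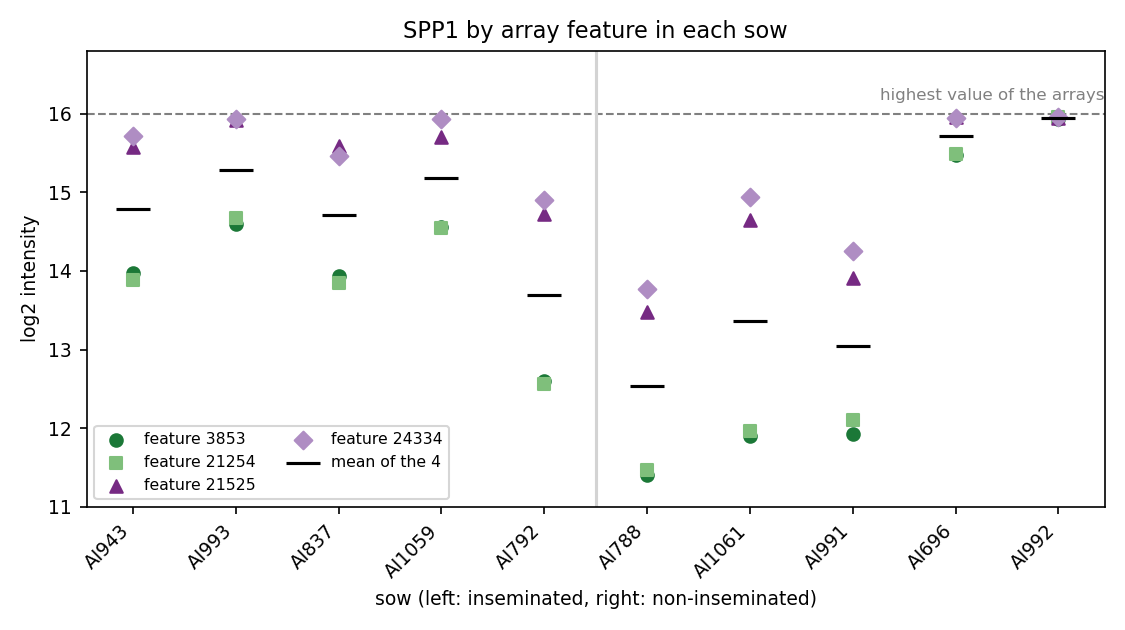
Log2 intensity of the 4 SPP1 features (symbols) and their mean (black bars) in each of the 10 sows, inseminated sows on the left and non-inseminated sows on the right, with the highest value of the arrays as a dashed line. Non-inseminated sows AI696 and AI992 lie at the top, AI788, AI1061 and AI991 at the bottom, and the inseminated sows between 13.70 and 15.28 in the mean.

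Across all 10 sows SPP1 spanned 3.41 on the log2 scale, 10.7-fold in intensity. Its SD of 1.19 exceeded that of 99.4% of genes, against a median SD of 0.22 over all genes. Among the 93 genes whose mean lay within 1 of that of SPP1, 0 had a larger SD, and their median SD was 0.27. Below this window SDF2L1, at a mean of 13.25, had a larger SD of 1.30. ACTB and GAPDH, the structural and glycolytic genes that served as controls in quantitative PCR of the same study, had differences of -0.01 and -0.01 with standard errors of 0.15 and 0.10. Their sign held under other scalings and turned without single sows.

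The 4 features ordered the sows nearly alike and fell into a dimmer and a brighter pair. The dimmer features 3853 and 21254 never differed by more than 0.17 in a sow and correlated at 0.999. The brighter features 21525 and 24334 never differed by more than 0.35 and correlated at 0.992. Between the pairs the correlations were 0.911 to 0.932 and the rank correlation was 0.964 for each combination, over 10 sows. Whether features of a pair share a probe sequence was not analysed here.

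The dimmer pair showed the wider span. Feature 3853 averaged 13.93 ± 0.81 in inseminated and 13.33 ± 2.19 in non-inseminated sows (SD, n = 5 each), and ranged over 4.53 in all sows, 23.1-fold in intensity. Feature 24334 averaged 15.59 ± 0.43 in inseminated and 14.97 ± 0.98 in non-inseminated sows, and ranged over 2.18, or 4.53-fold. The other dim feature, 21254, ranged over 4.49 and the other bright one, 21525, over 2.48. A step of 1 in feature 3853 went with a step of 0.46 in feature 24334, so the same sows spanned less on the brighter probes. Their differences between inseminated and non-inseminated sows were nevertheless of like size, at 0.60 for 3853, 0.51 for 21254, 0.72 for 21525 and 0.61 for 24334, with standard errors of 0.89, 0.88, 0.47 and 0.42.

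The ceiling of the scale was reached in some sows only. Of the feature values of SPP1, 3 in inseminated and 6 in non-inseminated sows lay within 0.1 of the highest array value. In inseminated sows these were 2 values of AI993 and 1 of AI1059, all on the brighter pair. In non-inseminated sows they were all 4 features of AI992 and the brighter pair of AI696. In AI992 the features stood at 15.94, 15.96, 15.94 and 15.95, with 113, 60, 107 and 74 of the 45220 features brighter. Differences among sows are compressed at this end, and a level of AI992 above that of the others is read as a lower limit.

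**Figure D2:**
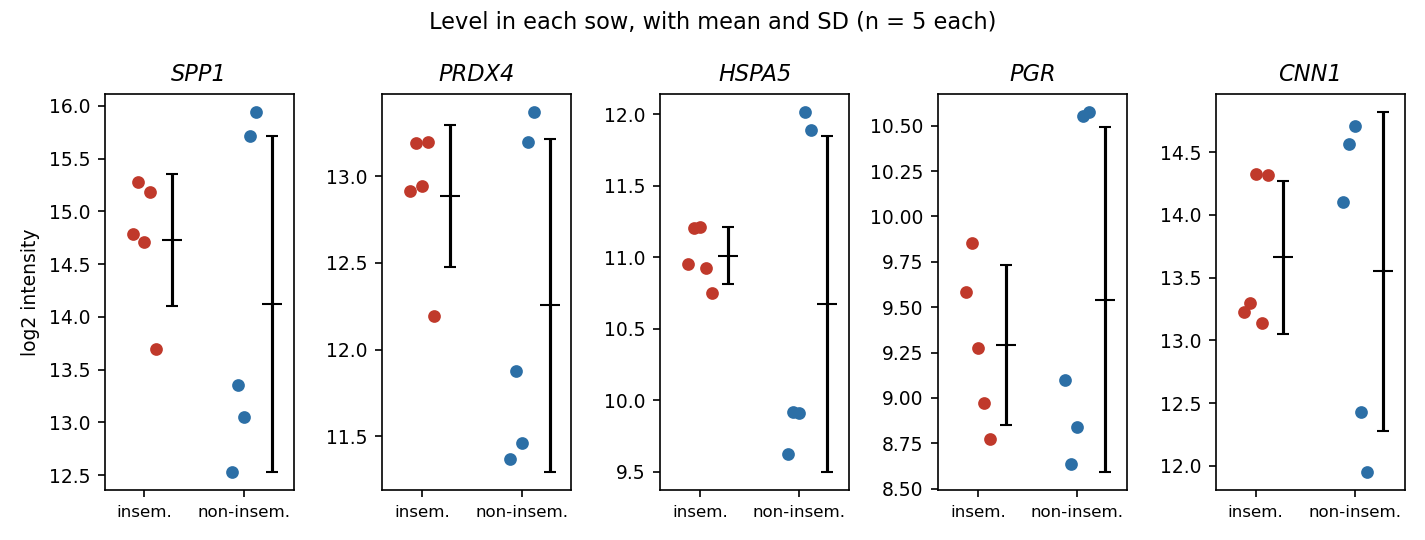
Log2 intensity of SPP1, PRDX4, HSPA5, PGR and CNN1 in each sow (points), inseminated on the left and non-inseminated on the right, with the group mean and SD (bars, n = 5 each); the vertical scale differs between panels and does not start at 0. The SDs of SPP1, HSPA5 and CNN1 were 0.63, 0.20 and 0.61 in inseminated sows and 1.59, 1.18 and 1.27 in non-inseminated sows, which stand above and below most of the inseminated sows.

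The other genes of the osteopontin system showed no called difference by insemination. Of 68 genes listed by known role, or in some cases as neighbours of SPP1 on the chromosome, 46 were measured. Among these, inseminated sows had the higher mean in 32 and the lower in 14, against 2135 and 2425 of all 4560 genes. The median difference was 0.08, against -0.01 over all genes. None passed a false discovery rate of 5% in limma, where 0% of the 4560 genes passed, and the smallest adjusted p over all genes was 0.999. At an unadjusted p under 0.05 there was 1 of the 46, the neighbour ABCG2, against 2.59% of all genes. Members below the median of all array values numbered 14, and for these dim genes a shift is hard to see.

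The receptors of osteopontin, integrin chains and CD44, were measured in 7 of 12 genes, all of them integrin chains, and CD44 was not analysed here. Of these, 6 had the higher mean and 1 the lower mean in inseminated sows. ITGAV, the alpha chain of the vitronectin receptors, differed by -0.09 with a standard error of 0.13. ITGB1, the beta chain shared by many integrins, averaged 11.93 ± 0.50 in inseminated and 11.89 ± 0.55 in non-inseminated sows (SD, n = 5 each), and its sign turned without single sows. ITGB3, which pairs with ITGAV, differed by 0.54 (standard error 0.53), and by -0.05 without inseminated sow AI943, which alone stood at 14.54 while the other 9 sows lay between 11.08 and 11.93. Differences of ITGB6, ITGB8, ITGA4 and ITGA5, further beta and alpha chains of which ITGA4 binds outside the RGD motif, ran from 0.05 to 0.11, and those of ITGB6 and ITGA4 turned without a single sow.

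Enzymes that cut or dephosphorylate osteopontin were measured in 10 of 13 genes, 6 higher and 4 lower in inseminated sows. ACP5, the tartrate-resistant phosphatase that removes phosphate from osteopontin, averaged 8.93 ± 0.64 in inseminated and 8.35 ± 0.28 in non-inseminated sows (SD, n = 5 each), a difference of 0.58 with a standard error of 0.28 and an adjusted p of 0.999 from limma. MMP7, an epithelial matrix metalloproteinase that cleaves osteopontin, differed by 0.90 (standard error 0.64), and by 0.21 without inseminated sow AI837, which stood at 10.54. MMP3, MMP9 and F2, which encodes prothrombin, differed by -0.09, -0.19 and 0.07, and the difference of MMP9 turned positive without a single sow.

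The SIBLING genes and SPARCL1 lie beside SPP1 on the same chromosome in the Sscrofa11.1 annotation, and ABCG2, an efflux transporter, lies a few genes to the other side. Of 8 genes listed 5 were measured. ABCG2 averaged 7.97 ± 0.15 in inseminated and 7.64 ± 0.23 in non-inseminated sows (SD, n = 5 each). The difference of 0.33 had a standard error of 0.13 and was the 1 with an unadjusted p under 0.05, at an adjusted p of 0.999 in limma. SPARCL1, a matricellular protein of the stroma, differed by 0.51 (standard error 0.51) and DMP1, a dentin and bone matrix protein, by 0.19 (standard error 0.14). IBSP and DSPP, bone sialoprotein and its dentin relative, were dim at means of 6.78 and 6.69 in inseminated and 6.69 and 6.79 in non-inseminated sows.

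Other matrix ligands of the same integrins were measured in 7 of 9 genes, and 6 of the 7 had the higher mean in inseminated sows, with none called. Fibronectin, FN1, differed by 0.49 (standard error 0.36), tenascin TNC by 0.31 (standard error 0.15) and thrombospondin THBS1 by 0.25 (standard error 0.26). The lactadherin gene MFGE8 differed by 0.07 and periostin, POSTN, by 0.14, which turned without single sows. Of 7 measured genes of integrin and CD44 signalling 3 were higher and 4 lower, from -0.17 for the kinase SRC to 0.16 for EZR, the actin linker ezrin, which turned without a single sow.

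Transcription factors and steroid receptors that act on SPP1 in mammals were measured in 10 of 12 genes, 7 higher and 3 lower in inseminated sows. PGR, the progesterone receptor, averaged 9.29 ± 0.44 in inseminated and 9.54 ± 0.95 in non-inseminated sows (SD, n = 5 each), a difference of -0.25 with a standard error of 0.41 that turned without a single sow. ESR1, the main oestrogen receptor, differed by 0.02 (standard error 0.16), which turned without single sows and was 0.35 in its brightest feature alone. RUNX2, VDR and FOS, factors of bone, vitamin D response and early response, differed by 0.11, -0.17 and 0.10, and FOS and VDR turned without a single sow.

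**Figure D3:**
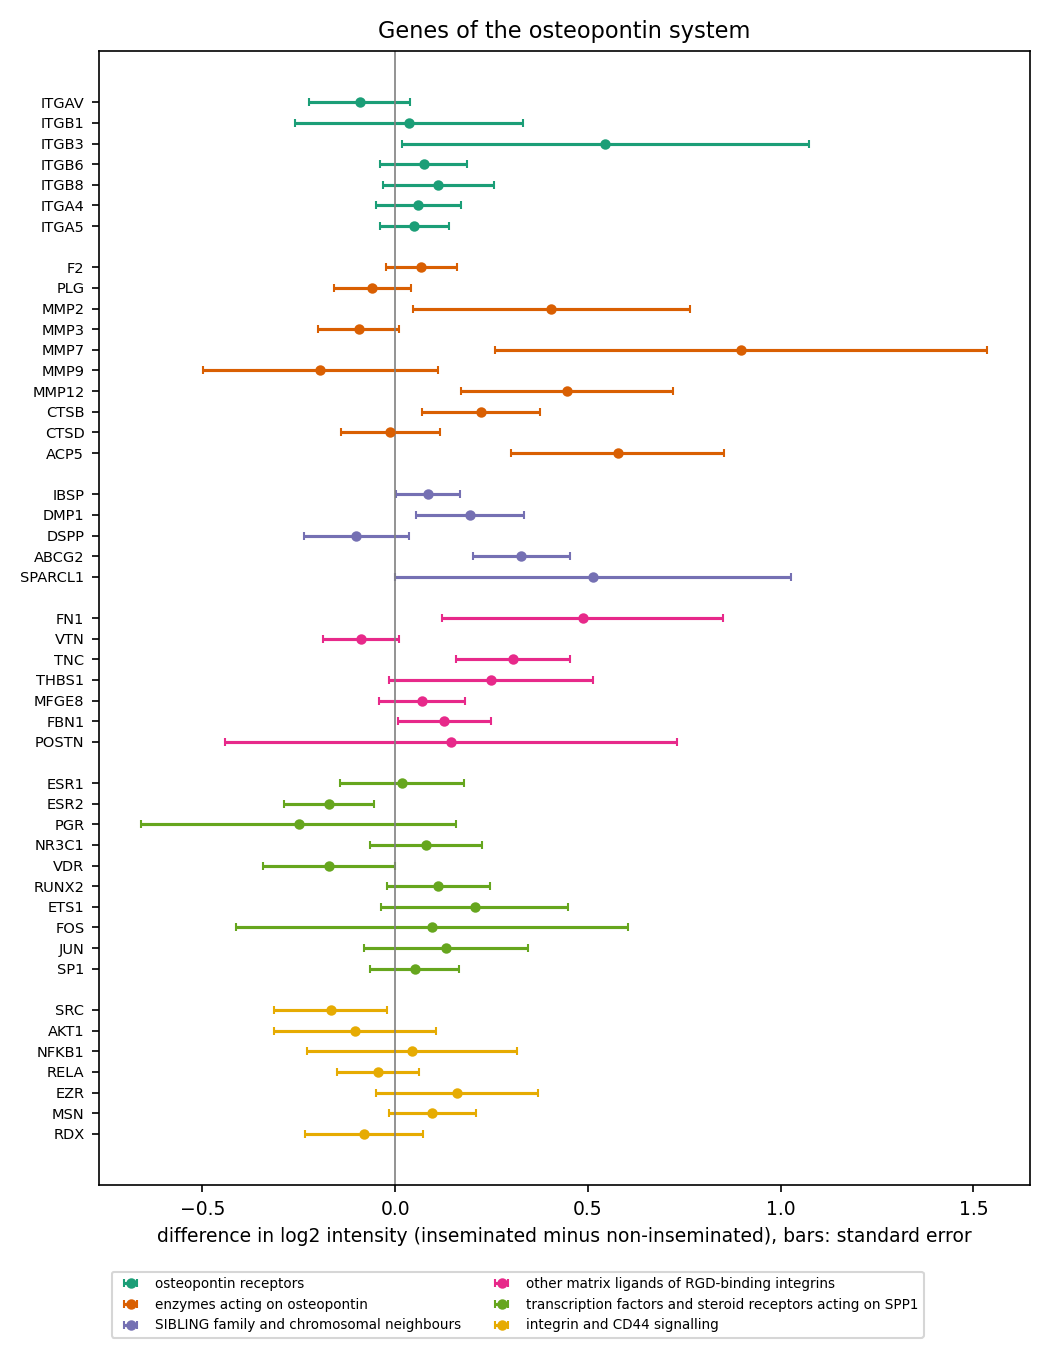
Difference in log2 intensity, inseminated minus non-inseminated, for the 46 measured genes of the osteopontin system (points) with the standard error of limma (bars), coloured by role. Most points lie within 0.5 of 0, MMP7 lies farthest to the right at 0.90 and PGR farthest to the left at -0.25.

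The genes closest to the sow-to-sow profile of SPP1 were led by PRDX4, TMEM86B and PON3. Likeness was taken as Pearson's r between SPP1 and each gene over the 10 sows, among the 2279 other genes brighter than the median gene, and since genes were picked for it no p is given. An r of at least 0.8 was reached by 70 genes (3.07%) and an r of at most -0.8 by 59 (2.59%). The count at -0.8 or less was 102 without AI788 and 115 without AI1061, and without AI991 and AI788 the counts were 238 and 134. Among all 4559 other genes these shares were 1.95% and 1.71%. All these r share the same 10 arrays and their normalization.

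PRDX4, the peroxiredoxin of the endoplasmic reticulum, came first with r = 0.981 (rho = 0.976). It stood at 12.91, 13.19, 12.95, 13.19 and 12.19 in inseminated sows AI943, AI993, AI837, AI1059 and AI792. In non-inseminated sows AI788, AI1061, AI991, AI696 and AI992 it stood at 11.37, 11.87, 11.46, 13.20 and 13.37. The same 3 non-inseminated sows were lowest as for SPP1, and AI992 was highest in both. AI696 lay level with inseminated sows AI1059 and AI993 in PRDX4, at 13.20 against 13.19 in each. PRDX4 averaged 12.89 ± 0.41 in inseminated and 12.25 ± 0.96 in non-inseminated sows (SD, n = 5 each), a difference of 0.63 with a standard error of 0.41.

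The other 7 genes of highest r were TMEM86B, an enzyme of lysoplasmalogen breakdown (0.975), the paraoxonase PON3 (0.961), AGA, a lysosomal enzyme of glycoprotein breakdown (0.960), SDF2L1, a partner of chaperones in the endoplasmic reticulum (0.951), HSPA5, the chaperone BiP (0.951), HSP90B1, the chaperone endoplasmin (0.950), and GUSB, the lysosomal beta-glucuronidase (0.950). Their r stayed between 0.890 and 0.979 without AI991 and AI788, the sows farthest from the SPP1 median. HSPA5 stood at 10.95, 11.21, 11.21, 10.93 and 10.75 in the inseminated sows, in the order above, and at 9.62, 9.92, 9.91, 12.02 and 11.89 in the non-inseminated sows. The inseminated sows lay close together, with an SD of 0.20 against 1.18 in non-inseminated sows, and all 5 non-inseminated sows lay outside their range.

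A list of chaperones and folding enzymes of the endoplasmic reticulum was drawn up after these values had been seen. Of its 12 measured genes 8 had an r of at least 0.8, against the 1.95% of all genes, and the median r was 0.91. Since several of its members had prompted the list, this count supports nothing. DNAJC3 (0.926), DNAJB11 (0.908) and CALR, which encodes calreticulin (0.841), were among the 8, while HYOU1 and ERO1A, at 0.13 and 0.25, did not follow. Of 4 stress transducers and transcription factors DDIT3 reached 0.866 and ATF6 stood at -0.10. Differences by insemination over the 12 genes ran from -0.04 to 0.72, 11 of them above 0, against 2135 of all 4560 genes. The list was prompted by genes that follow SPP1, itself higher on average in inseminated sows, so this count supports nothing either. In limma 0 of the 12 were called, also at an unadjusted p under 0.05.

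The lowest r belonged to ARAF, a kinase of the RAF family (-0.947), TIMP1, an inhibitor of metalloproteinases (-0.939), the lipid droplet protein PLIN3 (-0.930) and PEA15, an adaptor of cell death and ERK signalling (-0.912). TIMP1 stood at 11.37, 11.18, 11.67, 11.24 and 12.10 in the inseminated sows AI943, AI993, AI837, AI1059 and AI792. It stood at 12.08, 11.73, 12.19, 10.96 and 10.87 in the non-inseminated sows AI788, AI1061, AI991, AI696 and AI992. The order of the sows was thus close to the reverse of that in SPP1. When each gene and SPP1 were read by the brightest feature alone, which for SPP1 lies near the ceiling, r was -0.805 for ARAF, -0.830 for TIMP1, -0.932 for PLIN3 and -0.747 for PEA15. In the same reading it was 0.881 for AGA and 0.874 for HSPA5, and between 0.903 and 0.968 for the other 6 genes of highest r.

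**Figure D4:**
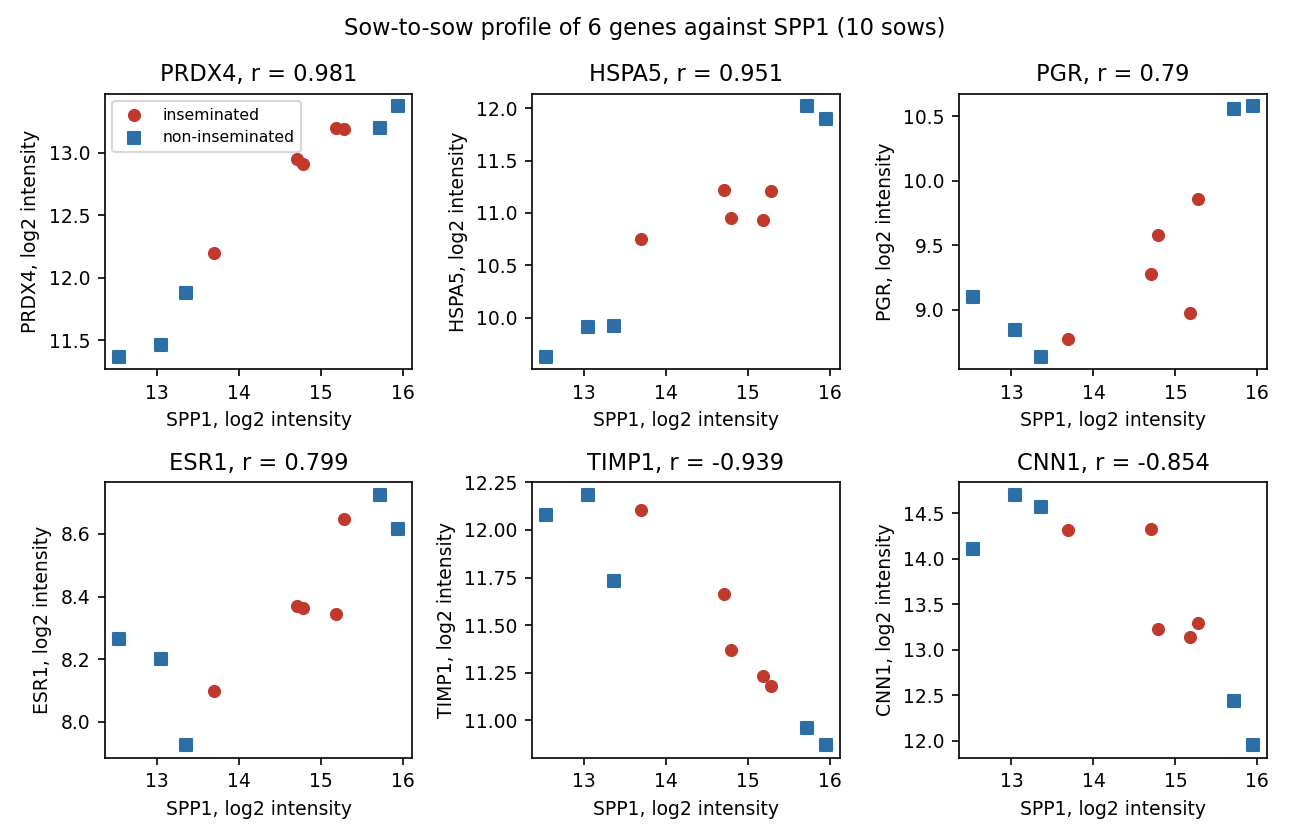
Log2 intensity of PRDX4, HSPA5, PGR, ESR1, TIMP1 and CNN1 against that of SPP1 in the 10 sows, inseminated sows as circles and non-inseminated sows as squares, with Pearson's r above each panel. The first 4 genes climb with SPP1 and the last 2 descend, and AI696 and AI992 stand at the right edge of every panel.

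Among the genes of the osteopontin system the highest r belonged to ESR1 and PGR, while ESR2, the other oestrogen receptor, stood at -0.16. ESR1 had r = 0.799 and PGR r = 0.790 (rho = 0.806 and 0.782), and 0.946 and 0.876 without sows AI991 and AI788. Such a rise was not particular to them, since genes with r of at least 0.8 numbered 238 without these sows, against 70 with all. PGR stood at 9.58, 9.85, 9.27, 8.97 and 8.78 in inseminated sows AI943, AI993, AI837, AI1059 and AI792, and at 9.10, 8.63, 8.84, 10.56 and 10.58 in non-inseminated sows AI788, AI1061, AI991, AI696 and AI992. Its 2 highest values were those of the same sows as for SPP1, while AI788, lowest in SPP1, was not lowest in PGR. Next came DMP1 at 0.683, and ITGB1, RDX, which encodes radixin, and SPARCL1 lay at the other end with -0.757, -0.670 and -0.647. Without AI991 and AI788, DMP1 stood at 0.641, ITGB1 at -0.913, RDX at -0.791 and SPARCL1 at -0.861. None of the 46 genes reached 0.8 in either direction over all sows, near the 1.95% and 1.71% of all genes that did. Their median r was -0.07, against -0.003 over all genes.

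Markers of the cell types in the wall moved with SPP1 to unlike degrees, and their part in its profile was not tested. Among the 2279 other genes brighter than the median gene, 53.8% had a positive r and the median r was 0.05. All 4 measured genes of smooth muscle, of 8 listed, had a negative r, with a median of -0.82. Calponin, CNN1, stood at 13.22, 13.29, 14.33, 13.14 and 14.32 in inseminated sows AI943, AI993, AI837, AI1059 and AI792, and at 14.10, 14.57, 14.71, 12.43 and 11.95 in non-inseminated sows AI788, AI1061, AI991, AI696 and AI992. AI696 and AI992, highest in SPP1, were lowest in it. The summed linear intensity of the list ran from 37456 to 73888 in inseminated and from 21673 to 91171 in non-inseminated sows, and the mean of its log2 levels spanned 2.22 over all sows, against 3.41 for SPP1. Of the control genes, ACTB had r = -0.792 and GAPDH r = 0.524.

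Secretory epithelium was measured by 12 of 15 markers, 7 with a positive and 5 with a negative r and a median of 0.53. This split by sign lay near the 53.8% of positive r among genes brighter than the median gene, while the median of 0.53 lay above their 0.05. An r of at least 0.8 was reached by 2 of the 12, against 3.07% of those genes. DMBT1, a mucosal scavenger protein, reached 0.825, the iron-binding LTF 0.811 and the secreted chaperone CLU 0.71. Structural epithelial genes were divided, with KRT18 and CDH1 at 0.55 and 0.50 and EPCAM and KRT8 at -0.09 and -0.15. Without sows AI991 and AI788, EPCAM and KRT8 stood at 0.63 and 0.70. OVGP1, at the ceiling in every sow, had r = -0.61. The summed intensity of the list ran from 208577 to 258417 in inseminated and from 172841 to 262450 in non-inseminated sows. The mean of its log2 levels spanned 0.88 over all sows. Of 10 ciliated cell markers 3 were measured, with r from 0.26 to 0.41.

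Markers of other cell types varied in their r within most lists. Macrophages, another known source of osteopontin, were measured by 6 of 12 markers, without CD68 and CSF1R, with a median r of -0.01. LYZ reached 0.62 and CD163 stood at -0.18, and the summed intensity of the list ran from 2344 to 4702 in inseminated and from 1903 to 4241 in non-inseminated sows. The median r was 0.03 over 5 neutrophil markers, 4 of them below the array median, and -0.13 over 9 of T and NK cells. It was -0.46 over 5 of fibroblasts and stroma, all negative, -0.36 over 7 of endothelium, -0.08 over 6 of cumulus and granulosa cells, 0.46 over 5 of oocyte and embryo and 0.01 over 3 of sperm. Below the array median lay 6 markers of T and NK cells and 1 each of stroma and endothelium. So did 3 of cumulus and granulosa cells, 3 of oocyte and embryo and 2 of sperm. Of the sperm genes PRM2, a protamine of sperm chromatin read by 1 feature, stood at 12.52 in non-inseminated sow AI1061, while the other 9 sows lay between 6.60 and 6.86. PRM1 and ODF1 stood at 6.93 and 6.68 in AI1061, within the span of the others, and without this sow the difference of SPP1 was 0.42. The 1 measured gene of red cells, SLC4A1, had r = -0.01.

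**Figure D5:**
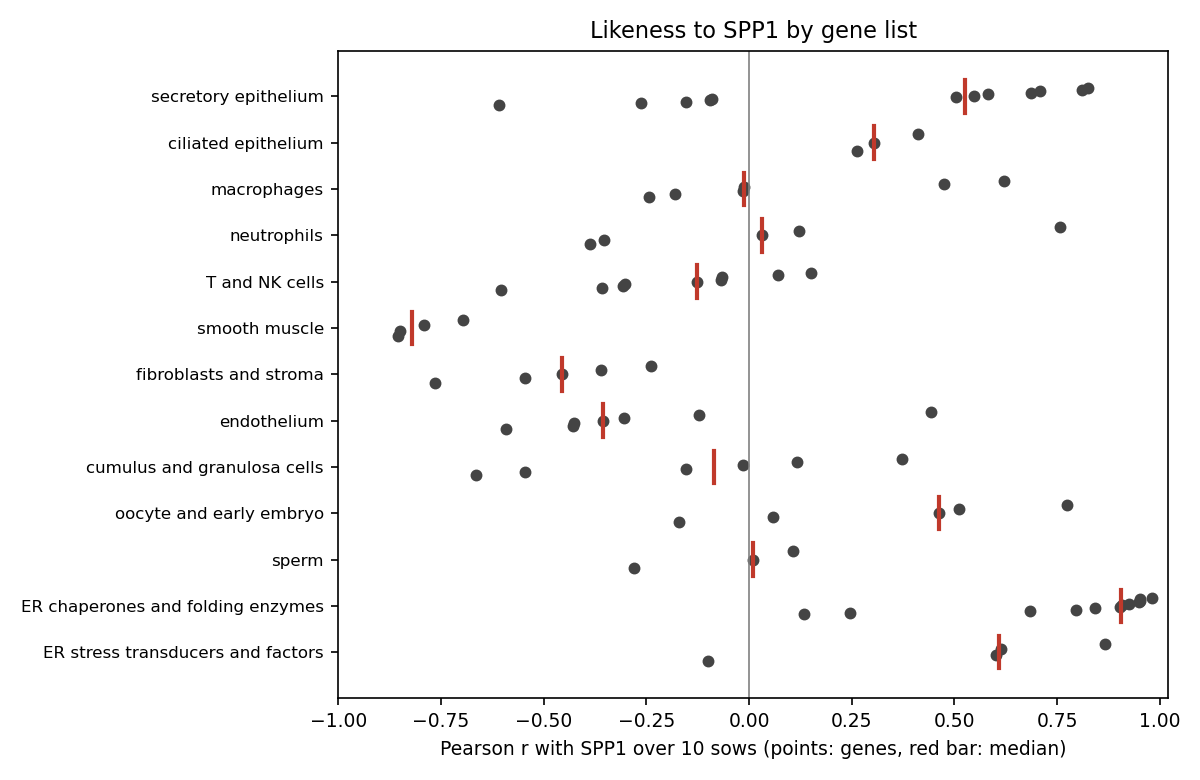
Pearson's r with SPP1 over the 10 sows for each measured gene (points) of the cell type lists and of 2 lists of the endoplasmic reticulum (ER) made after the values had been seen, with the median of each list as a red bar; lists of fewer than 3 genes are not drawn. Medians run from -0.82 for smooth muscle to 0.91 for chaperones and folding enzymes of the ER.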

How the data were processed

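The deposited values are log2 intensities of Cy3-labelled arrays, with 1 array for each animal. The authors quantified the spots in GenePix Pro, applied normexp background correction (offset 10) and quantile normalization in limma, and deposited the outcome. They were used as deposited. Sorted arrays differed by at most 0.054.

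Features were paired with symbols through the platform annotation, brought up to date through RefSeq accessions for 6055 features, which changed 446 symbols. In all 10290 features had 1 symbol and 34930 none, which gave 4560 genes, each the mean log2 level of its features. Groups were compared with limma 3.58.1 in R 4.3.3 (lmFit, eBayes) with Benjamini-Hochberg adjustment over all genes. Correlations were computed in Python 3.11.15 with numpy 2.4.6. The fit was tested on simulated data first. Alternatives were other centring or normalization, the brightest feature of each gene, a filter on low values, other variance settings and leaving out each sow.

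The gene, the lists and the tests were chosen with earlier results of these data known. Named genes were SPP1, members of 6 lists of the osteopontin system and of cell type lists, ACTB, GAPDH, and the 8 genes of highest and 4 of lowest r. The 2 lists of the endoplasmic reticulum and the alternative with the 2 dimmer SPP1 features were added after values had been seen. Blood progesterone and the day of surgery, which the labels do not give, were not used here, nor were sequences. The order of genes around SPP1 was taken from positions in the RefSeq annotation of Sscrofa11.1.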

Additional observations from a re-analysis of the deposited data

Results flagged for a closer look

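Of 130 groups of 5 sows, from SPP1, its features and the other named genes of its system and profile, 6 held a sow far from the other 4, where chance alone gives about 1 in 20. A sow was counted when its gap to the nearest other, divided by the range of the group, was above 0.71. SPP1 and its features gave no such sow in either group. PRDX4, the gene closest to SPP1, was low in inseminated sow AI792 at 12.19, with the next at 12.91. That sow was also the lowest inseminated one in SPP1. ITGB3 was high in inseminated sow AI943 at 14.54, with the next at 11.93, and ITGA4, an integrin chain of leukocytes, was high in inseminated sow AI792 at 7.19, with the next at 6.73. In non-inseminated sows DSPP and VDR were high in AI1061, at 7.32 and 7.78 with the next at 6.70 and 6.97, and RUNX2 was high in AI696 at 6.89, with the next at 6.49.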

How the results depend on the processing

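The difference of SPP1 stayed positive in every alternative run. It was 0.61 under other centring or quantile normalization, 0.51 to 0.72 in single features, 0.03 as a ratio of linear means and 1.43 between medians, and ran from 0.21 to 1.07 when each sow was left out. Of all genes 0 passed in limma under each of the 7 other settings, and 0 to 1 without each sow, the 1 being without AI696. Of the pathway genes 0 passed in any of them. Genes with r of at least 0.8 numbered 53 to 98 under other settings except for 238 without AI991 and AI788, which leaves 8 sows, and 60 to 104 without each sow, against 70. Of those 70 genes 55 kept it in the 8 sows. Genes with r of at most -0.8 numbered 134 in the 8 sows, with 41 of the 59 kept, and 44 to 115 without each sow, being 102 without AI788 and 115 without AI1061. Of SPP1 values in inseminated sows 0 lay within 0.05 of the highest value, 3 within 0.2 and 7 within 0.5, against 3 within 0.1, and 1 to 3 without each sow. In non-inseminated sows 4 to 6 did under these limits, and 2 to 6 without each sow, with 2 without AI992. The cause of these shifts was not tested. No paired analysis was possible because the 2 groups were different sows. Precision is limited by having 5 arrays a group, and the scale compresses SPP1 near its top.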

Other observations

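Further genes of high or low r with SPP1 included some enzymes of the lysosome and some genes of contraction. These genes were picked by known function after their values had been seen, so they carry no test and stand for no gene group. Besides AGA and GUSB, the lysosomal enzymes HEXA (r = 0.865), FUCA2 (0.857), HYAL1 (0.844) and DNASE2 (0.813) were among the 70 genes with r of at least 0.8 over the 10 sows. Without AI991 and AI788, HEXA stood at 0.685, FUCA2 at 0.860, HYAL1 at 0.880 and DNASE2 at 0.811. Other lysosomal genes did not follow, with CTSB at -0.13, CTSD at -0.31 and Scarb2, a lysosomal membrane protein, at -0.87. SPDEF, a transcription factor of secretory epithelia, stood at 0.90, and FOLR1, the folate receptor of the oviduct epithelium, at 0.816.

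Among the 59 genes with r of at most -0.8 were the muscle creatine kinase CKM (-0.882), the myosin light chain MYL6 (-0.876), the actin crosslinker FLNA (-0.867), KCNMB1, a potassium channel subunit of smooth muscle (-0.861), vinculin VCL (-0.851) and tropomyosin TPM2 (-0.833). PGRMC1, a progesterone-binding membrane protein, stood at -0.856, and FKBP5, a co-chaperone of steroid receptors, at -0.853. A further 409 features without a gene symbol, of 34930, had r of at least 0.8 and 252 had r of at most -0.8.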
